A study of Mus musculus with 17 samples.

Results

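The blood transcriptome of unirradiated mice is described here from the 5 control animals of a radiation study of 17 mice. The members were the 5 arrays titled as controls, so no measured value entered the choice, and the 12 irradiated mice were used only for one check of spread within their own dose groups. The controls were female C57BL/6JJcl mice, an inbred strain, aged 8 weeks, that had received 0 Gy. Their whole blood was taken at the 24 h time point into an RNA-stabilising tube, and total RNA of each mouse went to 1 Affymetrix mouse array. The other mice differed from them by X-ray doses of 0.5, 1.0 and 3.0 Gy, with 4 animals at each dose. Strain, sex, age, tissue and time point were the same in all groups. How blood was drawn, and whether the controls were sham-exposed, is not stated in the labels used here. The values are log2 signals, so a difference of 1 is a doubling, and the mice are called 1 to 5 after the replicate numbers in the labels, which carry no order.

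Whole blood mixes RNA from several cell populations. Red cells lose their nucleus before they enter the blood, and the youngest of them, the reticulocytes, still hold the messenger RNA for globin, heme synthesis and iron handling. Platelets carry RNA inherited from megakaryocytes, and neutrophils, monocytes and lymphocytes supply the RNA of immune defence. In such a bulk sample, fewer cells of a type and less RNA per cell cannot be told apart.

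Between pairs of arrays, Pearson's r over all 45101 probe sets lay between 0.979 and 0.990, a description over genes, and no 2 arrays were copies. Array medians ran from 3.47 to 3.54. The 3 control probe sets for 18S ribosomal RNA averaged 10.44, 9.82, 10.54, 10.62 and 11.19 in mice 1 to 5, and the bacterial hybridisation controls averaged 11.15, 11.02, 11.15, 11.28 and 11.38. Mouse 2 was lowest and mouse 5 highest for both. The 3′ minus 5′ difference of the array's Gapdh control probe sets, a measure of RNA quality, was 0.32, 0.30, -0.04, 0.13 and 0.19, highest in mice 1 and 2, and that of the Actb control was 0.22, 0.13, 0.08, 0.10 and 0.14. Of 18193 named genes, 11677 were kept because their probe set lay above the array's median in at least 4 of the 5 mice.

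The labels of sex and tissue could be checked from defining transcripts. Xist, the RNA that silences one X chromosome in females, read 10.75, 9.66, 10.82, 11.17 and 10.69 in mice 1 to 5. The Y-linked genes Eif2s3y, Kdm5d, Usp9y and Uty had mean signals from 1.70 to 2.69 and did not pass the signal filter. The probe set named Sry, of a type that can match several transcripts, averaged 3.80 ± 0.25 (SD, n = 5) and did pass it. The 3 brightest of all probe sets on the array each carried several globin symbols and read at least 14.56 on average, with SDs between 0.010 and 0.019. These probe sets match more than 1 globin gene and were given to none. They lie at the top of the signal range, where equalising intensities across arrays can hold values together. Their small SDs therefore do not measure steady expression.

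Of the globin genes with a probe set of their own, Hbb-b2, an adult beta chain, read 12.08, 12.07, 12.32, 12.05 and 12.15 in the 5 mice. Hba-a2, an adult alpha chain, had a mean of 5.10 ± 0.38 (SD, n = 5), and the probe set named Hba-a1 averaged 2.78 and was not kept. Hbb-bh1 and Hbb-y, embryonic beta-like chains, averaged 6.98 ± 0.24 and 5.15 ± 0.32, and the embryonic alpha-like Hba-x stayed under the filter at 3.68. Near-identical globin copies can share signal on this array, so the single-gene values are uncertain. Signal also depends on the probes of a set, so levels are ranked in bands here and no fold between genes is given.

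Marker genes of solid tissues gave weak signals in most mice. None of the kept members of the skin, liver, muscle and heart, fat and endothelium, or lung lists lay in the brightest 5% of genes, and only 3 of 12 skin and keratinocyte genes passed the filter. The liver and macrophage transcripts that did stand out in single mice are described further on.

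The brightest transcripts of resting blood were those of young red cells, ribosomes and the actin cytoskeleton. By mean signal, the first 10 genes were Tpt1, Alas2, Pabpc1, Tmsb4x, Slc25a39, Gpx1, Rps29, Fth1, Mkrn1 and Actb. Alas2 makes the first enzyme of heme synthesis in red cells, Slc25a39 is a mitochondrial carrier, Gpx1 removes peroxides, and Fth1 encodes the heavy chain of ferritin. Tmsb4x binds actin monomers, and Pabpc1 binds the poly(A) tail of messenger RNA.

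Alas2 read 14.002, 13.95, 13.78, 13.83 and 13.96 in mice 1 to 5. Tpt1, a translationally controlled protein found in most cells, read 14.01, 13.88, 13.998, 14.04 and 14.06. Both spanned less than 0.25 log2 units over the 5 animals. Bpgm, which makes the 2,3-bisphosphoglycerate that loosens oxygen from haemoglobin, read 13.39, 13.30, 12.70, 12.95 and 13.14. Fech, which inserts iron into protoporphyrin, read 13.38, 13.22, 12.67, 12.79 and 12.95. For both genes mice 1 and 2 were highest and mouse 3 lowest, although after repeated quantile normalization mouse 4 was the lowest for Fech.

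**Figure D1:**
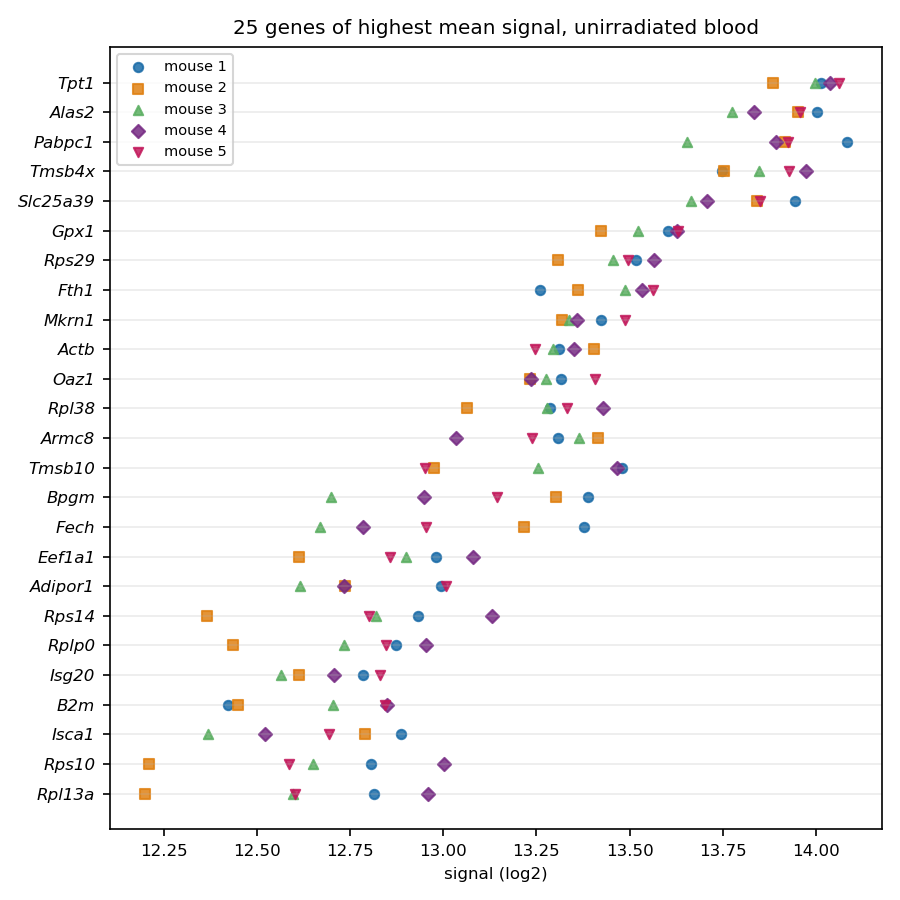
Signal of the 25 genes with the highest mean, with log2 signal on the horizontal axis and 1 point per mouse. Tpt1, Alas2, Mkrn1 and Actb lay within a narrow band in all 5 mice, whereas Bpgm and Fech were lower in mouse 3 than in mice 1 and 2.

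The brightest 5% of kept genes held 584 genes, all with a mean of at least 8.42. Ribosomal protein genes had 34 of 41 kept members in this band and translation factors 16 of 22. The list of reticulocyte maturation and red cell enzymes had 12 of 15, the heme and iron list 7 of 17, and the red cell membrane list 2 of 16. Platelet genes had 16 of 27. Among leukocyte programmes the counts were 8 of 13 for MHC class II and antigen presentation, 8 of 25 for B cells, 7 of 25 for mature neutrophils, 4 of 22 for monocytes, 4 of 24 for T cells and 2 of 18 for NK and cytotoxic cells.

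For other programmes the counts are read against the 5% of all kept genes that this band holds. The interferon list had 4 of 36 members there (11.1%), immediate early genes 2 of 25 (8%), targets of p53 1 of 25 (4%), cell division 1 of 14 (7.14%) and DNA replication 1 of 23 (4.35%). Immature granulocytes had 0 of 12, eosinophils, basophils and mast cells 0 of 6, and clock genes 0 of 14. Of 17 measured genes of eosinophils, basophils and mast cells, 11 stayed under the filter. The interferon member Rsad2, an antiviral enzyme, was itself among the brightest at 12.77, 12.73, 11.74, 12.11 and 12.18 in the 5 mice.

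**Figure D2:**
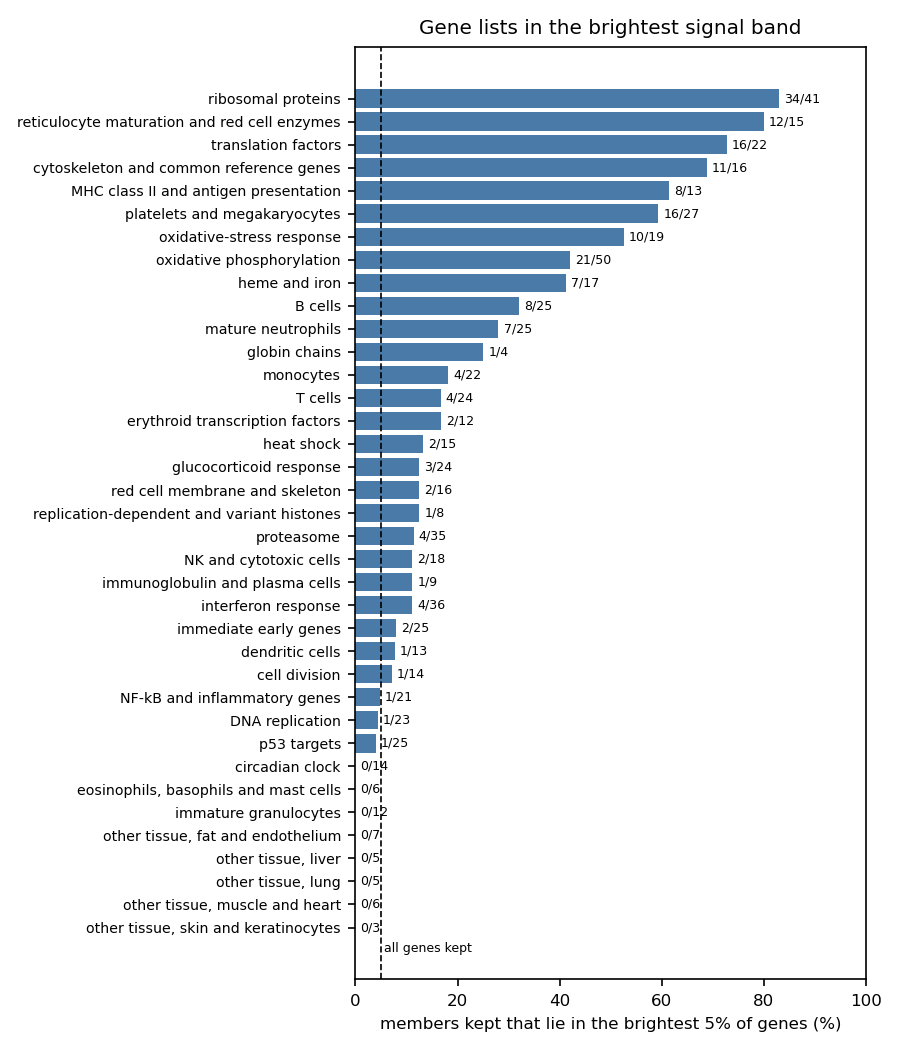
Share of each list's kept members that lay among the brightest 5% of genes, as bars with the counts beside them, and a dashed line at the share of all kept genes. Ribosomal proteins (34/41) and red cell enzymes (12/15) lead, and tissue lists and immature granulocytes stand at 0.

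The promoters of Alas2 and Epb42, as erythroid genes, and of Pf4, as a platelet gene, are shown because all 3 hold the hexamer AGATAA. This is a form of the site read by GATA factors. Alas2 and Pf4 were among the brightest 5% of genes, and Epb42, at a mean of 6.22, was not. The sequences come from RefSeq (GRCm38.p6) and run 5′ to 3′ on the strand of the gene from 250 bases before to 50 bases after the start, with the hexamer or its reverse complement TTATCT in capitals. Alas2 is at chrX:150547167-150547466 on the plus strand, Pf4 at chr5:90772185-90772484 on the plus strand and Epb42 at chr2:121036828-121037127 on the minus strand.
Alas2: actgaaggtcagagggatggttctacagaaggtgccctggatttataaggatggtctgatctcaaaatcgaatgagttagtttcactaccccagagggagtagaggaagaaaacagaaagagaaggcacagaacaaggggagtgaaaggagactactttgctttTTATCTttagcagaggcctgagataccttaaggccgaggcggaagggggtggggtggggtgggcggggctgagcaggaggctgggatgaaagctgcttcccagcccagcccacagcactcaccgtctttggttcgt
Pf4: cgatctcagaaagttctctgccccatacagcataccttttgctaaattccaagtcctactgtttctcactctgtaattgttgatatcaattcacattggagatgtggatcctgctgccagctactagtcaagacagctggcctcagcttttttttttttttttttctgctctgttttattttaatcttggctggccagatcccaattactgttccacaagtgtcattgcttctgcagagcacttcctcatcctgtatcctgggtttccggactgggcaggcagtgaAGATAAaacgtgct
Epb42: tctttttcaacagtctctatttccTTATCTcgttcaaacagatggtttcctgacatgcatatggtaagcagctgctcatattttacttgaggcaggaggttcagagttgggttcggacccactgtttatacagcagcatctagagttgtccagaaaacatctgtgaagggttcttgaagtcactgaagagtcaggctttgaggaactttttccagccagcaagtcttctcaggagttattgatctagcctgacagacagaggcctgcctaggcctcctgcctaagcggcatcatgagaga
Searched on both strands, AGATAA was found in 3672 of 32851 RefSeq promoters (11.2%), in 10 of 57 promoters of the 4 red cell lists and in 5 of 22 of the platelet list. A match describes letters in this window and is no measured binding.

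Of the red cell lists, 3 had the same highest and lowest mouse. For each gene the value of a mouse was set against the gene's own mean of 5 mice, and these deviations were averaged over a list's kept members. The list of reticulocyte maturation and red cell enzymes deviated by 0.34, -0.03, -0.35, -0.01 and 0.05 in mice 1 to 5. The heme and iron list gave 0.22, -0.06, -0.23, 0.00 and 0.07, and the membrane list 0.22, -0.06, -0.20, -0.06 and 0.10. On these means all 3 lists were highest in mouse 1 and lowest in mouse 3. Of their kept members, 11 of 15, 10 of 17 and 9 of 16 were highest in mouse 1, and 10, 9 and 6 were lowest in mouse 3. Over all kept genes, 28.7% were highest in mouse 1 and 13.2% lowest in mouse 3. The globin list differed, at -0.02, -0.21, 0.00, 0.03 and 0.20 over 4 kept genes, highest in mouse 5 and lowest in mouse 2. After repeated quantile normalization the membrane list was highest in mouse 5 instead.

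Within this programme there were 2 patterns. Epb42, a protein of the red cell membrane skeleton, read 7.29, 5.92, 5.41, 6.32 and 6.17, and Slc4a1, the band 3 anion exchanger, read 11.75, 11.04, 10.25, 10.52 and 10.86. Both were highest in mouse 1 and lowest in mouse 3, and a second Epb42 probe set gave the same highest and lowest mouse. Slc25a37 (mitoferrin), which brings iron into mitochondria, read 12.05, 12.03, 10.70, 11.01 and 11.12 instead. Ube2o, the ubiquitin ligase that clears proteins from maturing reticulocytes, read 10.10, 9.99, 8.43, 8.83 and 8.98, and Yod1, a deubiquitinase, 7.84, 7.76, 6.12, 6.39 and 6.49. In these 3 genes mice 1 and 2 both stood more than 0.9 log2 units above the other mice.

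That second pattern recurred among other variable genes. Of the 225 genes with an SD of at least 0.5 (1.93% of kept genes), 73 (32.4%) had mice 1 and 2 both above mice 3, 4 and 5, against 1382 of all 11677 kept genes (11.8%). The Gapdh 3′ minus 5′ difference split the mice in the same way, at 0.32 and 0.30 against -0.04 to 0.19. That of Actb did not, at 0.22 and 0.13 against 0.08, 0.10 and 0.14. The part of RNA quality in this pattern was not tested. Slc12a2, a sodium-potassium-chloride cotransporter, was one of the 73, at 5.18, 5.67, 4.42, 4.65 and 3.74. E2f2, a cell cycle transcription factor also used in red cell maturation, was another, at 8.56, 8.12, 7.13, 7.43 and 7.38. Erythroid transcription factors as a list varied little, with deviations between -0.07 and 0.08.

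Platelet genes were lowest in mouse 1. Their list deviated by -0.35, 0.13, -0.08, 0.07 and 0.23 in mice 1 to 5. Of the 27 kept members, 20 were lowest in mouse 1, against 22.2% of all kept genes. Ppbp and Pf4, the chemokines stored in platelet granules, read 12.24, 12.48, 12.65, 12.88 and 12.90 and 11.84, 12.17, 12.29, 12.47 and 12.64. P2ry12, the ADP receptor targeted by clopidogrel, read 7.45, 8.26, 8.74, 8.89 and 9.05.

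The platelet programme did not move as one block. Rgs18, a regulator of G protein signalling, read 9.62, 9.75, 10.58, 10.63 and 10.70, and Cd9, a tetraspanin, 11.29, 11.58, 12.09, 12.14 and 12.19, so mice 1 and 2 were both low. Vwf, the von Willebrand factor, read 6.71, 7.41, 5.81, 5.83 and 6.22, and the integrins Itgb3 and Itga6 read 7.78, 8.62, 7.33, 7.67 and 7.71 and 8.76, 9.38, 8.30, 8.29 and 8.35. All 3 were highest in mouse 2. Without mouse 1 the SD of the platelet list's 5 deviations fell from 0.23 to 0.13.

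Among the lists of blood leukocytes, those of B cells and T cells had the widest spread. The B cell list deviated by 0.44, -0.21, -0.21, 0.21 and -0.23. Of its 25 kept members, 23 were highest in mouse 1, against 28.7% of all kept genes. The T cell list deviated by 0.27, -0.21, 0.05, 0.29 and -0.40. Of its 24 members, 14 were lowest in mouse 5, against 23.7% of all kept genes. The SDs of these deviations were 0.31 and 0.30. Repeated quantile normalization lowered the first to 0.17, with mouse 1 still highest. After it the T cell list deviated by 0.107, -0.096, 0.144, 0.165 and -0.32, with mouse 5 still lowest.

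B cell identity genes showed the high values of mouse 1 directly. Ms4a1, which encodes CD20, read 10.23, 9.25, 9.52, 10.02 and 9.79, and Cd79b, a signalling chain of the B cell receptor, 9.87, 8.99, 9.18, 9.72 and 9.27. Spib, a B lineage transcription factor, read 9.21, 8.35, 7.90, 8.66 and 8.58. Mouse 1 was highest for all 3, and second probe sets of Ms4a1 and Ebf1 named the same highest and lowest mouse as the first.

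In the T cell list, 7 of 24 members had an SD of at least 0.5, against 1.93% of all kept genes. Cd3d, a chain of the T cell receptor complex, read 9.55, 8.64, 9.48, 10 and 8.90. Ccr7, which guides naive T cells to lymph nodes, read 8.86, 7.97, 8.75, 9.30 and 8.00, and Cd8b1, a CD8 chain, 8.00, 7.33, 7.95, 8.30 and 6.93. These 3 were highest in mouse 4 and low in mice 2 and 5. Satb1, a chromatin organiser of T cells, read 8.499, 7.66, 7.48, 7.68 and 6.58 and was highest in mouse 1, as was Il7r, the interleukin-7 receptor, at 8.61, 7.85, 8.16, 8.51 and 7.33. Zap70, the kinase that acts below the receptor, did not share the low values of mice 2 and 5, at 8.55, 9.04, 8.93, 8.75 and 9.07.

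The antigen presentation list deviated by 0.22, -0.18, -0.01, 0.19 and -0.22. Its members H2-Aa and H2-Eb1, chains of MHC class II, averaged 11.73 ± 0.29 and 11.08 ± 0.28 (SD, n = 5). Ccl5 and Gzma, expressed by NK cells and cytotoxic T cells, averaged 9.18 ± 0.26 and 8.48 ± 0.31. The NK and cytotoxic list had deviations between -0.14 and 0.17.

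Myeloid lists shifted less, but some of their members varied widely. The mature neutrophil list deviated by 0.15, -0.18, 0.07, 0.18 and -0.23. Mice 1 and 4 were positive and mice 2 and 5 negative there, as in the B and T cell lists. These signs were not particular to leukocytes. The median deviation of all kept genes had them too, at 0.033, -0.009, -0.021, 0.027 and -0.018. So did the cytoskeleton and common reference genes, at 0.12, -0.15, -0.10, 0.19 and -0.06. After repeated quantile normalization the neutrophil list deviated by 0.02, -0.06, 0.14, 0.07 and -0.165, with mouse 3 highest. S100a8 and S100a9, the calprotectin subunits of neutrophils, averaged 12.03 ± 0.29 and 11.57 ± 0.34, and Lyz2, the lysozyme of myeloid cells, 12.34 ± 0.38 (SD, n = 5). Mmp9, a granule protease, read 7.45, 7.48, 6.93, 7.22 and 6.06, and Chil3, a chitinase-like protein, 7.97, 7.29, 8.00, 7.59 and 6.45. Both were lowest in mouse 5. The monocyte list deviated by at most 0.12, yet Csf1r, the receptor for macrophage colony-stimulating factor, read 8.86, 9.26, 8.04, 8.30 and 7.94. Treml4, a marker of the Ly6C-low monocytes that patrol vessels, read 6.14, 6.86, 6.33, 6.33 and 5.43. Adgre4, found on the same cells, read 6.82, 7.06, 6.16, 6.55 and 5.65. Mouse 2 was highest and mouse 5 lowest for all 3. Of the 22 kept members of the list, 11 were highest in mouse 2 and 10 lowest in mouse 5. Over all kept genes these shares were 18.2% and 23.7%. Others went the opposite way, with 6 members highest in mouse 5 and 6 lowest in mouse 2. Lyz2 was one of these, at 12.14, 11.93, 12.28, 12.395 and 12.94.

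**Figure D3:**
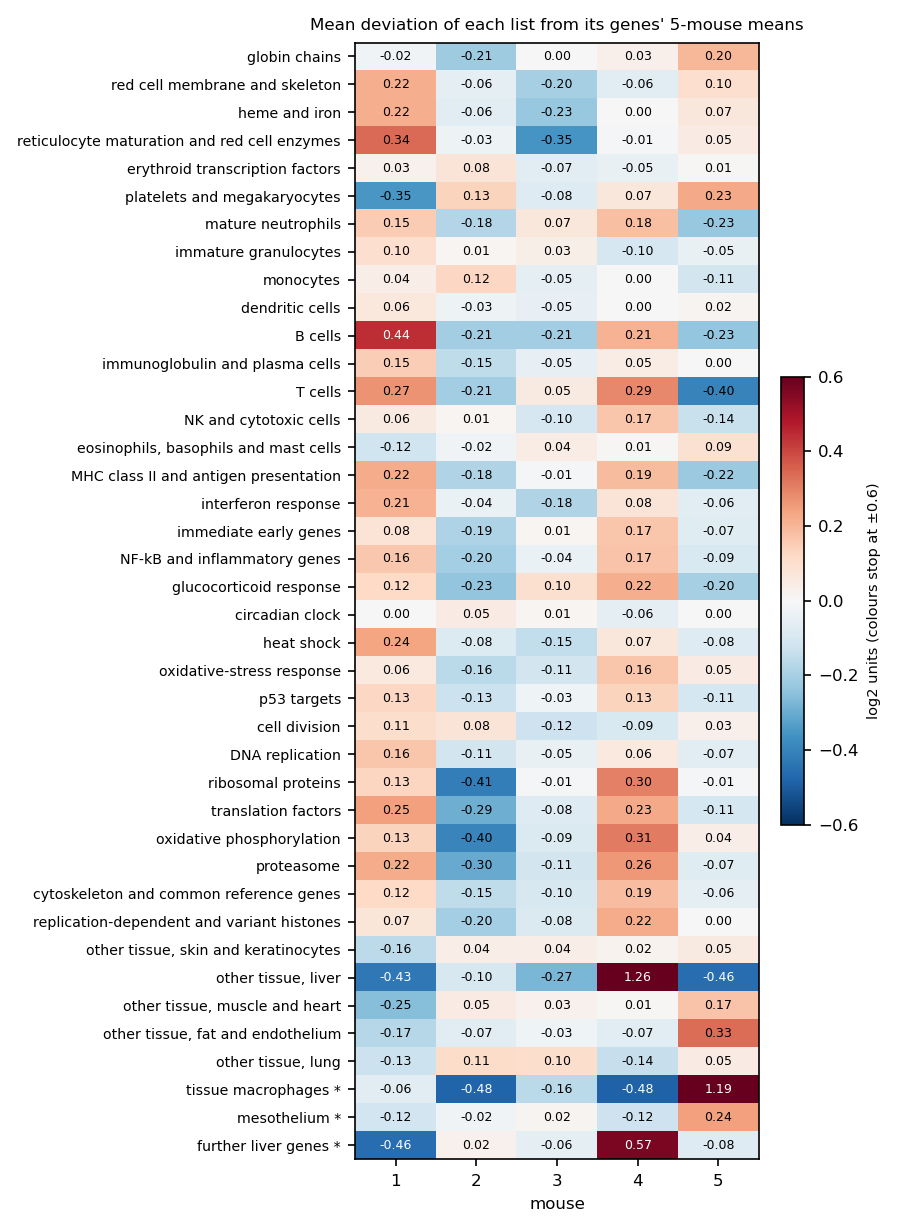
Mean deviation of each list's kept genes from their own 5-mouse means, in log2 units, with lists in rows and mice in columns (an asterisk marks lists chosen after values were seen). Liver genes stand apart in mouse 4 and macrophage genes in mouse 5, and ribosomal and respiratory chain genes are lowest in mouse 2.

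Over all kept genes the spread between mice was small. The median SD was 0.21, 10% of genes lay under 0.106 and 10% above 0.375. An SD from 5 mice is itself imprecise, with a 95% interval from 0.599 to 2.87 times its value if values are normally distributed. In all, 225 of 11677 genes (1.93%) had an SD of at least 0.5, and 10 had an SD of at least 1. This count was 427 without mouse 3, 342 without mouse 4 and 367 without mice 4 and 5. Mice 1, 2, 3, 4 and 5 contributed 27.4%, 21.5%, 10.1%, 18.9% and 22.1% of the summed squared deviations.

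Variances were then tested against those of genes of similar signal with limma's empirical Bayes variance model, one-sided, with Benjamini-Hochberg adjustment over all 11677 genes. One gene (0.00856%) passed an adjusted p of 0.05, Alb, with an adjusted p of 0.011 and mouse 4 as its highest value. With Alb included, 485 genes (4.15% of those tested) had an unadjusted p under 0.05. C1qc (limma, adjusted p = 0.0502), Prg4 (0.068), Saa3 (0.084) and Cd5l (0.084) came next and did not pass. Without mouse 4 no gene passed, without mouse 1, 2 or 3 there were 5, 4 and 6, and without any filter on signal 14 passed.

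**Figure D4:**
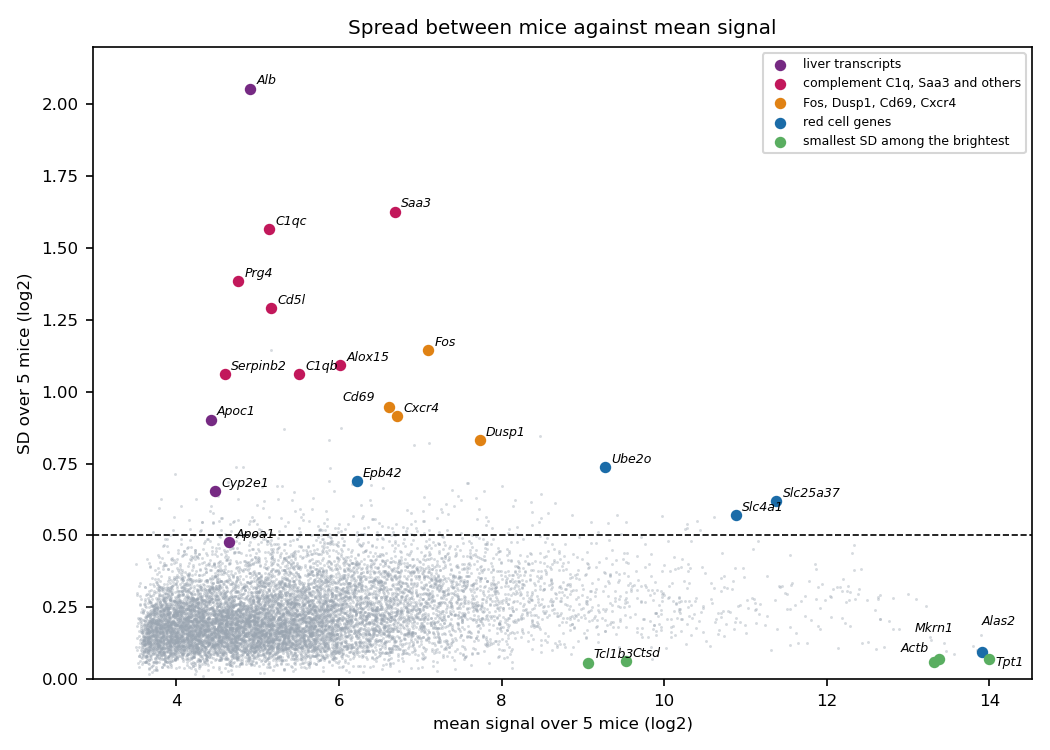
SD over the 5 mice against mean signal (both log2) for the 11677 kept genes as grey points, with named genes in colour and a dashed line at an SD of 0.5. Alb has the largest SD at 2.06, followed by Saa3 and C1qc, while Actb, Tpt1 and Mkrn1 are bright with SDs under 0.1.

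Liver transcripts were high in mouse 4. Alb, the serum albumin gene, read 3.86, 4.47, 4.14, 8.53 and 3.54 in mice 1 to 5, so mouse 4 stood 16.7-fold above the next mouse. Its SD was 2.06 with mouse 4 and 0.40 without it. Apoc1, an apolipoprotein, read 3.70, 3.93, 4.13, 5.98 and 4.37, and Cyp2e1, a liver cytochrome P450, 4.09, 4.36, 4.14, 5.64 and 4.17. Apoa1, the main protein of high-density lipoprotein, read 4.46, 4.40, 4.65, 5.46 and 4.26.

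Several other liver genes did not pass the signal filter and were also highest in mouse 4. Their other mice read near or below the array median, so these differences are best taken as lower bounds. Serpina1c, an alpha-1-antitrypsin gene, read 2.51, 2.70, 2.49, 6.57 and 2.65, and Apoa2, an apolipoprotein of high-density lipoprotein, 3.28, 3.57, 3.33, 6.03 and 3.29. Fabp1, the liver fatty acid binding protein, read 1.83, 1.80, 1.87, 4.51 and 2.03. Of the 10 measured genes of the liver list, 8 were highest in mouse 4, and the list's mean level was 3.505, 3.78, 3.66, 4.97 and 3.63. Of 15 further liver genes, chosen after values were seen and so only a description, 13 were highest in mouse 4. The defining liver gene Ttr was not much higher there, at 6.05, 6.403, 5.93, 6.59 and 5.97. The part of liver RNA in other results of mouse 4 was not tested.

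The promoter of Alb, the only gene called, is shown with the hexamer GTTAAT, part of the recognition site of the liver factor HNF1, in capitals. It lies at chr5:90460620-90460919 on the plus strand (RefSeq, GRCm38.p6), again 250 bases before to 50 after the start.
Alb: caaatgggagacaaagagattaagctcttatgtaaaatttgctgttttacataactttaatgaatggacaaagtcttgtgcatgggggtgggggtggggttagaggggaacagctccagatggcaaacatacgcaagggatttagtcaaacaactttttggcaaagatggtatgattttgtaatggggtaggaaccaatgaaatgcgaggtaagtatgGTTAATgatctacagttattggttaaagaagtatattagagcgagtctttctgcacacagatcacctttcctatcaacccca
The hexamer or its reverse complement ATTAAC was in 2332 of 32851 promoters (7.10%) and in 4 of 11 promoters of the liver list.

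Transcripts associated with macrophages were high in mouse 5. Saa3, an acute-phase serum amyloid made by macrophages, read 6.62, 5.77, 6.49, 5.14 and 9.39 in mice 1 to 5, so mouse 5 stood 6.84-fold above the next. C1qc, a chain of the first complement component, read 5.16, 3.81, 4.79, 4.16 and 7.78. Cd5l, a scavenger receptor family protein secreted by tissue macrophages, read 5.27, 3.94, 4.91, 4.42 and 7.30, and Prg4, also called lubricin, 5.50, 3.23, 4.48, 3.84 and 6.73. Each of these genes was highest in mouse 5, and mice 2 and 4 had the 2 lowest values.

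Further genes had the same highest mouse. Alox15, a lipoxygenase, read 5.97, 5.56, 5.48, 5.17 and 7.90, and Ltc4s, the leukotriene C4 synthase, 4.74, 5.19, 5.18, 4.69 and 6.82. Timd4, a receptor for dying cells on resident macrophages, read 3.57, 3.39, 3.45, 3.31 and 5.82, and Serpinb2, an inhibitor of plasminogen activators, 4.21, 3.80, 4.54, 4.00 and 6.43. Cxcl13, a chemokine that attracts B cells, read 5.76, 5.75, 5.95, 5.18 and 7.51. A second C1qb probe set read 4.98, 3.85, 4.55, 3.56 and 7.75.

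A list of 29 measured tissue macrophage genes was chosen after these values were seen, so its counts describe and support nothing. Of them, 26 were highest in mouse 5, and the mean level was 4.88, 4.46, 4.77, 4.45 and 6.06 in mice 1 to 5. Without mouse 5 the SD of its deviations fell from 0.69 to 0.22. A list of 10 mesothelial markers was also chosen after values were seen. It averaged 3.09, 3.27, 3.29, 3.18 and 3.38, under the array median in every mouse. Of the 10, 7 did not pass the signal filter, and 5 were highest in mouse 5. The 3 kept members deviated by -0.12, -0.02, 0.02, -0.12 and 0.24. The 7 kept fat and endothelial genes deviated by 0.33 on average in mouse 5, and 3 of them were highest there, against 19.1% of all kept genes. Fabp4, a fatty acid binding protein of fat and macrophages, was the only one with an SD of at least 0.5. It read 5.11, 4.95, 4.96, 4.76 and 6.42. What part cells from outside the blood had in these values was not tested.

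**Figure D5:**
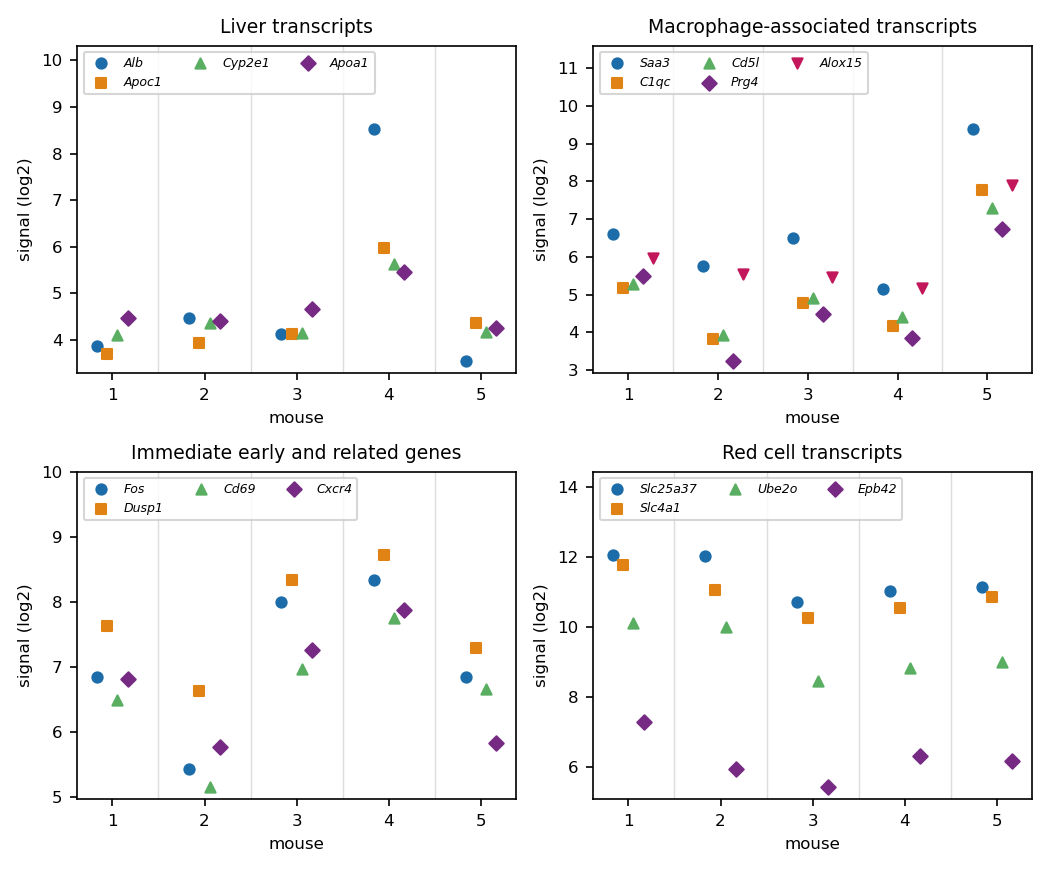
Log2 signal (vertical axis) by mouse (horizontal axis) for 4 groups of variable genes, 1 point per gene and mouse. Alb and 3 further liver transcripts peak in mouse 4, the 5 macrophage-associated transcripts in mouse 5, Fos and Dusp1 are high in mice 3 and 4 and low in mouse 2, and Slc25a37 and Ube2o are high in mice 1 and 2.

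Fos, Dusp1, Cd69 and Cxcr4 were among the 30 genes of largest SD. Fos and Dusp1 are immediate early genes, which are switched on within minutes of a stimulus, Cd69 was on the NF-kB and inflammatory list, and Cxcr4 on the glucocorticoid list. Fos, a subunit of the AP-1 transcription factor, read 6.85, 5.44, 8.00, 8.34 and 6.84, and Dusp1, a phosphatase that turns off MAP kinases, 7.63, 6.64, 8.34, 8.73 and 7.30. Cd69, an early activation marker of lymphocytes, read 6.49, 5.15, 6.98, 7.76 and 6.67, and Cxcr4, the receptor for the chemokine CXCL12, 6.83, 5.78, 7.27, 7.88 and 5.83. Mice 3 and 4 were high and mouse 2 low in all 4 genes. The spread was 7.46-fold for Fos between the lowest and the highest mouse, and none of the 4 passed limma's test (adjusted p from 0.526 to 0.967).

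In the immediate early list 2 of 25 kept members, Fos and Dusp1, had an SD of at least 0.5, against 1.93% of all kept genes, and the list deviated by 0.08, -0.19, 0.01, 0.17 and -0.07. Jund, another AP-1 subunit, averaged 10.70 ± 0.23 (SD, n = 5). In the glucocorticoid response list 5 of 24 members reached an SD of 0.5, against the same 1.93%, and Dusp1 belongs to both lists. Tsc22d3 (GILZ), a glucocorticoid-induced leucine zipper protein, read 9.62, 8.69, 9.71, 10.08 and 8.97. Ddit4, an inhibitor of the mTOR kinase, read 6.62, 6.16, 7.10, 7.39 and 6.21, and Sgk1, a hormone-regulated kinase, 5.81, 4.53, 5.49, 5.85 and 5.16. Mouse 4 was highest and mouse 2 lowest for all 3. Of the 24 members, 8 were highest in mouse 4 and 9 lowest in mouse 2, against 22.8% and 23.7% of all kept genes. Another 4 members were lowest in mouse 4, and 3 were highest in mouse 2. The list deviated by 0.12, -0.23, 0.10, 0.22 and -0.20 in mice 1 to 5.

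The promoters of Fos and Dusp1 are shown because these genes had the same order of mice 4, 3 and 1 at the top and mouse 2 at the bottom, and both hold TGACGT, a core of the cyclic AMP response element. Matches on either strand are in capitals (RefSeq, GRCm38.p6, same window). Fos is at chr12:85473640-85473939 on the plus strand and Dusp1 at chr17:26508423-26508722 on the minus strand.
Fos: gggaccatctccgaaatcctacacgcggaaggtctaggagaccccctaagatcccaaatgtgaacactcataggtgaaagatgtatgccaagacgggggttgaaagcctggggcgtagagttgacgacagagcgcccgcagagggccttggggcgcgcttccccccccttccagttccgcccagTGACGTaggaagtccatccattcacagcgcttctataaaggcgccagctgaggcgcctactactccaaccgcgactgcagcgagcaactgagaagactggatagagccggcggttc
Dusp1: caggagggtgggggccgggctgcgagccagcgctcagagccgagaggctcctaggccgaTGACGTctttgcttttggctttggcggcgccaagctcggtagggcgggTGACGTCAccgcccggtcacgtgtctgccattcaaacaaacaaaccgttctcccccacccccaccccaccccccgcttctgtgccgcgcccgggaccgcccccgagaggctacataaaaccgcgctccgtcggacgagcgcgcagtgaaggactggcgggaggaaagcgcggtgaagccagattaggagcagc
TGACGT or its reverse complement ACGTCA was in 2468 of 32851 promoters (7.51%) and in 10 of 30 promoters of the immediate early list. Of the 3 matches in Dusp1, 2 overlap on opposite strands.

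Housekeeping programmes moved as blocks, over ranges close to those of the B and T cell lists. From the lowest to the highest mouse, the ribosomal list spanned 0.72 and the oxidative phosphorylation list 0.71 log2 units. The B cell list spanned 0.67 and the T cell list 0.69. Ribosomal protein genes deviated by 0.13, -0.41, -0.01, 0.30 and -0.01 in mice 1 to 5, with 39 of 41 kept members lowest in mouse 2 and 36 highest in mouse 4. Oxidative phosphorylation genes deviated by 0.13, -0.40, -0.09, 0.31 and 0.04, with 41 of 50 lowest in mouse 2 and 38 highest in mouse 4. Over all kept genes, 23.7% were lowest in mouse 2 and 22.8% highest in mouse 4. Rps19, a small-subunit ribosomal protein, read 10.85, 10.02, 10.76, 11.23 and 10.66, and Uqcrb, a subunit of respiratory complex III, 10.84, 9.95, 10.34, 10.82 and 10.55.

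Mouse 2 was also lowest for 18S ribosomal RNA and for the hybridisation controls. Mouse 5 was highest for both of these and deviated by -0.01 in the ribosomal and 0.04 in the oxidative phosphorylation list. The part of these measures was not tested. After repeated quantile normalization the SD of the ribosomal list's deviations fell from 0.26 to 0.13 and that of the oxidative phosphorylation list from 0.26 to 0.16, with mouse 2 still lowest and mouse 4 still highest in both. The deviation of mouse 1 for oxidative phosphorylation changed sign, to -0.03. Without mouse 2 the SDs were 0.15 and 0.17.

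The interferon list deviated by 0.21, -0.04, -0.18, 0.08 and -0.06. Of its 36 kept members, 19 were highest in mouse 1, against 28.7% of all kept genes. Oas3 and Oasl2, of the 2′-5′ oligoadenylate synthetase family, read 6.38, 5.97, 4.99, 5.32 and 5.49 and 6.2001, 5.68, 4.79, 5.33 and 5.59. Targets of p53 deviated between -0.13 and 0.13, and 1 of 25 had an SD of at least 0.5, against 1.93% of all kept genes. Clock genes deviated between -0.06 and 0.05, with 0 of 14 at that SD.

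Among the most variable 5% of genes (584), 53.4% were highest in mouse 1 and 28.3% in mouse 4, against 28.7% and 22.8% of all kept genes. Mouse 5 was lowest for 40.6% and mouse 2 for 33.7% of the variable genes, against 23.7% of all kept genes for each. Mouse 3 was highest for 1.03% of them, against 11.2%. Some variable genes followed none of the patterns above. Slc15a2, a peptide transporter, read 3.66, 6.18, 4.20, 5.85 and 5.90, with mice 1 and 3 low. Slc40a1, the iron exporter ferroportin, read 6.32, 5.92, 6.11, 6.34 and 4.68, with mouse 5 low.

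A second probe set of the same gene gave a check within the same RNA. Among 288 of the most variable 584 genes that had one above the filter, 177 (61.5%) named the same highest mouse, against 1754 of 4276 genes with one (41.0%). Both the highest and the lowest mouse matched in 45.5% and 22.1%. For Rgs18, Csf1r, Satb1 and Mmp9 both matched. For Bcl11b, a T cell transcription factor, neither did: its first probe set was highest in mouse 1 and lowest in mouse 5, its second highest in mouse 2 and lowest in mouse 4.

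The irradiated mice were used only for the spread within their own dose groups, pooled over the 12 animals with 9 degrees of freedom. The most variable 584 genes of that spread shared 188 (32.2%) with the most variable 584 of the controls, where 5% of kept genes make each list. Saa3 had a pooled SD of 1.92 there, C1qc 1.57, Prg4 1.71, Cd5l 1.54 and Alb 1.34, so these transcripts differed between individuals of one group in both sets. Other variable genes of the controls had smaller pooled SDs. Fos had 0.59, Dusp1 0.42, Ube2o 0.31 and Yod1 0.26, against 1.14, 0.83, 0.74 and 0.81 in the controls, and these differences in SD were not tested.

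The steadiest of the brightest genes, by SD, were Tcl1b3 (SD 0.058), Actb (0.059), Ctsd (0.063), Tpt1 (0.068) and Mkrn1 (0.069). The Tcl1b3 probe set is of a type that can match several transcripts, so its signal may not be that gene's. Small SDs at the top of the signal range do not by themselves show steady expression. For Tpt1 and Mkrn1 the highest mouse changed from mouse 5 to mouse 1 after repeated quantile normalization. Actb, cytoplasmic beta-actin, read 13.31, 13.40, 13.30, 13.35 and 13.25, and Ctsd, the lysosomal protease cathepsin D, 9.53, 9.58, 9.52, 9.58 and 9.43. Mkrn1, a ubiquitin ligase abundant in reticulocytes, read 13.42, 13.32, 13.34, 13.36 and 13.49.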

How the data were processed

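Whole blood RNA of 17 mice was hybridised to 1 Affymetrix array each, and the 5 control arrays are described here. Log2 values of 45101 probe sets were deposited. RMA and R 3.3.2 are named in the submitters' processing notes, with settings and scan dates not stated there. RMA equalises probe intensities across all 17 arrays and pulls dim probe sets towards background, so small spreads of weak genes are understated. In the platform annotation, 34945 probe sets carried 1 gene symbol, 932 several, 9160 none and 64 were controls. Each gene was read from its brightest probe set over the 5 controls and kept if that lay above the array's 50th percentile in at least 4 mice. Means and SDs (n = 5) were computed per gene. The variance test used limma 3.58.1 in R 4.3.3 with a robust fit and an intensity trend, and was tested on simulated data. Genes named in the text were the 25 brightest, the 30 with the largest SD, the 5 steadiest of the brightest 5%, up to 3 brightest and 3 most variable members per list, and all globin, X-inactivation and Y genes. Other named genes (such as Timd4) were chosen after their values were seen. The members and lists were chosen with earlier results of these data known. The number of arrays limits the precision. No dose comparison was made. Alternatives covered each mouse left out, probe set choice, filters, normalization and the variance model.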

Additional observations from a re-analysis of the deposited data

Results flagged for a closer look

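Among 167 sets of 5 values checked (118 named genes, 41 lists and the array measures), 19 had 1 mouse far from the other 4, and chance flags about 1 in 20 groups not chosen for their values. Many of these genes were chosen for a large SD, and 3 lists after values were seen, so their number of flags was partly fixed by the choice and is not read against that rate.

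Mouse 4 stood above the nearest mouse by 4.06 log2 units for Alb, 1.28 for Cyp2e1, 2.46 for Apoa2, 2.25 for Apoc3, 2.48 for Fabp1, 2.89 for Serpina1b and 3.87 for Serpina1c. The liver list deviated there by 1.36 more than in the next mouse. All 7 genes are made mainly in liver. Apoa2, Apoc3, Fabp1, Serpina1b and Serpina1c did not pass the signal filter, and their nearest mice read near or below the array median, so these 5 differences are best taken as lower bounds.

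Mouse 5 stood above the nearest mouse by 1.95 for C1qb, 1.90 for Serpinb2, 1.63 for Ltc4s, 2.25 for Timd4, 1.38 for Vsig4, 1.31 for Fabp4 and 1.90 for Fabp7. Timd4, Vsig4 and Fabp7 did not pass the filter either, and the same holds for their differences. The tissue macrophage list, chosen after values were seen, stood 1.25 above the next mouse, and the fat and endothelium list 0.36. Slc40a1 was lower in mouse 5 than in the nearest mouse by 1.24. The skin and keratinocyte list was lower in mouse 1 than in the nearest mouse by 0.18. Their causes were not tested.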

How the results depend on the processing

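The count of genes more variable than genes of like signal (1, Alb) ranged from 0 to 6 when 1 mouse was left out. It was 4 with the mean of all probe sets of a gene, with only plain probe sets or after repeated quantile normalization, 11 with probe sets chosen over 17 arrays, 14 without a filter, and 0 with the 75th percentile filter, with array medians set equal or without an intensity trend. The adjusted p of Alb was 0.976 without mouse 4, 0.0602 with medians set equal and 0.115 without a trend, and between 0.000629 and 0.0162 in the other settings that tested it. The count of genes with an SD of at least 0.5 (225) ranged from 199 to 427 when 1 mouse was left out. It was 107 with the mean of all probe sets, 375 by median absolute deviation and 367 without mice 4 and 5 (chosen after seeing the data). Of the 584 brightest genes, 366, 331 and 327 were shared with the mean of probe sets, plain probe sets and the 75th percentile filter, which test fewer genes. Of 570 list values, 562 moved by less than the main SD. The others were globin chains (0.15 to 0.39, plain probe sets), X and Y genes (0.24 to 0.51, plain probe sets, and 0.56, 75th percentile filter), immature granulocytes (0.08 to 0.27), immunoglobulins (0.11 to 0.23) and cell division (0.10 to 0.22) with the 75th percentile filter, erythroid factors (0.06 to 0.12, quantile normalization) and further liver genes (0.37 to 0.79, probe sets chosen over 17 arrays). The causes were not tested. For variable genes with a second probe set, the share with the same highest mouse was 75.1% and 56.2% in the 2 added settings (61.5% in the report). Over all genes, the share with both the highest and the lowest mouse the same went from 22.1% to 34.4% with second probe sets above the 75th percentile. The share of variable genes found again in the other mice was 39.8% for the most variable 10%. These settings were chosen after seeing the data. No paired analysis was possible because all values come from 1 group, in which replicate numbers pair nothing. With 5 arrays, SDs are imprecise, and the files give no signal over background.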

Other observations

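Probe sets without a gene symbol also varied, and 107 of them that passed the signal filter had an SD of at least 0.5. Of all unnamed probe sets, whether or not they passed the filter, the most variable read 2.42, 2.56, 2.55, 9.33 and 2.30 in mice 1 to 5, and the next 1.93, 1.90, 1.58, 5.49 and 1.85. Neither passed the filter, and both were highest in mouse 4, as Alb was.

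Without the filter on signal, limma's variance test called 14 genes. Beside liver and macrophage genes they included 3 others. G530011O06Rik was highest in mouse 1, at 6.55, 3.70, 2.94, 3.04 and 4.05. Ednrb, an endothelin receptor, read 3.86, 2.66, 3.75, 3.47 and 5.92, and Fabp7, a fatty acid binding protein, 2.42, 2.28, 2.89, 2.52 and 4.79, both highest in mouse 5.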
